A study of Mus musculus with 6 samples.

Results

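The protocadherins and the giant cadherins of the Fat, Dachsous and Celsr families were examined in osteoblasts with and without pRb, the product of the retinoblastoma gene Rb1. The set of 40 genes was taken by symbol from the annotation of the array: the beta cluster protocadherins Pcdhb2 to Pcdhb22, the dispersed protocadherins Pcdh1, Pcdh7, Pcdh8, Pcdh9, Pcdh10, Pcdh12, Pcdh15, Pcdh17, Pcdh18, Pcdh19 and Pcdh20, and Fat1 to Fat4, Dchs1 and Celsr1 to Celsr3. Every probe set whose single annotated symbol was one of these was kept, which gave 68 of the 45037 non-control probe sets and 40 of the 18193 genes on the array. A total of 21 genes with 27 probe sets belong to the beta cluster and 19 genes with 41 probe sets lie elsewhere. The cells were MC3T3 osteoblasts, here meaning calvarial cells of day 18.5 embryos that were immortalized by passage under the 3T3 protocol. The mice were the F2 of a cross between flox19-RB1 animals, which carry a floxed RB1 allele and were kept on C57BL/6, and Col1a1-Cre transgenics (2.3- and 3.6-Col1a1-Cre, whose promoter is active in cells of the osteoblast lineage); which of these transgenes the cultured cells carried is not stated. The pRb-deficient cells lacked pRb, and the pRb-expressing cells, labelled wild type, came from control littermates. Each group had 3 arrays, 1 per culture. The labels call the cultures biological replicates without saying whether they came from separate animals or from 1 immortalized line, so the p-values measure the spread between these cultures, which may be technical.

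Protocadherins are single-pass surface proteins with cadherin repeats outside the cell. The clustered ones lie in the alpha, beta and gamma clusters on mouse chromosome 18, where each beta gene has its own promoter and a single coding exon. Neurons express a few of them per cell, and matching proteins on 2 cells recognize each other. The dispersed delta protocadherins have longer cytoplasmic tails, through which the delta-1 group can bind protein phosphatase 1 and several delta-2 members can bind the WAVE complex that nucleates actin. Dachsous proteins act as ligands for Fat proteins across cell contacts, and Celsr proteins, the mammalian counterparts of fly Flamingo, form homophilic bridges; both systems set planar cell polarity, the orientation of cells within a sheet.

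Values are MAS5 signals, the brightness of a probe set on a linear scale after each array was scaled to a common trimmed mean. Signals at or below 32 were set to 32 before log2 transformation, and all log2 fold changes are pRb-deficient over pRb-expressing. For each gene the array values are listed in the order of replicates 1, 2 and 3. Rb1 had signals of 143.1, 127.1 and 123.5 in pRb-deficient cultures, against 1123.7, 1118.6 and 1105.9 in pRb-expressing cultures. Its log2 fold change was −3.09 (SE 0.10, adjusted p = 4.94e-06 from limma), and its other probe set was under 32 on all arrays. Where these probes lie relative to the floxed exon was not examined, so the signal checks the labels and not the deletion. Arrays correlated at 0.974 to 0.984 within groups and at 0.912 to 0.917 between groups, and over all probe sets tested the log2 fold changes had a median of −0.06. Of 10 osteoblast markers measured, 9 were lower in pRb-deficient cultures and Phex was higher, where 23.4% of all genes tested were lower and 18.5% higher. The sum of the 10 signals lay between 40050 and 54670 in pRb-deficient cultures and between 81220 and 89500 in pRb-expressing cultures. In such bulk RNA, fewer cells of a type and less RNA per cell cannot be told apart.

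Protocadherins of the beta cluster were lower in pRb-deficient osteoblasts wherever they passed the test. Of the 27 beta cluster probe sets, 15 were lower, none was higher, 11 did not pass and 1 was not tested because it was under 32 on every array. Across the array 18.8% of the probe sets tested were lower and 16.2% were higher. The count of 0 higher came from limma at an adjusted p under 0.05, and no beta cluster probe set with a positive change had an unadjusted p under 0.05. The groups did not overlap in 21 of the 26 probe sets tested, 20 of them lower and 1, Pcdhb18, higher, and in 48.0% of all probe sets tested. Counted by gene, with the probe set of the highest mean signal standing for the gene, 11 of 21 were lower, 9 did not pass and Pcdhb10 was not tested, where 23.4% of all genes tested were lower and 18.5% higher. The median log2 fold change of the 26 probe sets was −0.78, with a range of −3.08 to 0.50. A total of 8 of the 26 were at or below 32 on every pRb-deficient array and so entered the test only through their signals in pRb-expressing cultures. Among the probe sets called lower, these were Pcdhb12, the brighter one of Pcdhb14 and the dimmest ones of Pcdhb15 and Pcdhb16. For them a call could only be lower, so the counts above overstate the contrast with the array.

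Pcdhb17 and Pcdhb9 show how the beta genes differed. These proteins, like the other beta members, are adhesion molecules without the shared cytoplasmic domain that alpha and gamma members carry. Pcdhb17 had signals of 345.0, 269.8 and 174.7 in pRb-deficient cultures, against 754.4, 727.2 and 775.7 in pRb-expressing cultures. The highest pRb-deficient array was far below the lowest pRb-expressing one, while the pRb-deficient arrays also differed among themselves (mean 263 ± 85.3 in pRb-deficient and 752 ± 24.3 in pRb-expressing cultures, SD, n = 3 each). Its log2 fold change was −1.57 (SE 0.24, adjusted p = 0.00211 from limma). Pcdhb9 had signals of 53.2, 39.0 and 22.7 in pRb-deficient cultures, against 344.8, 335.2 and 344.7 in pRb-expressing cultures. With the pRb-deficient array under 32 set to the floor, the log2 fold change was −3.08 (SE 0.23, adjusted p = 9.78e-05 from limma), and it was −1.77 with a floor of 100.

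Some genes of the cluster were measured by several probe sets. Pcdhb15 had 51.7, 62.5 and 44.6 in pRb-deficient cultures, against 397.4, 271.8 and 370.5 in pRb-expressing cultures on its brighter probe set, a log2 fold change of −2.71 (SE 0.23, adjusted p = 0.000169 from limma). On its second probe set the pRb-deficient signals of 3.7, 2.9 and 1.3 were all under the floor, against 145.4, 173.9 and 218.6 in pRb-expressing cultures. The second probe set entered the test only through its signals in pRb-expressing cultures, so its change (log2 −2.47) is given as a description and adds no support to the first.

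Pcdhb16 was lower on all 3 of its probe sets, with no overlap between the groups on any of them. The brightest had 105.9, 44.7 and 28.4 in pRb-deficient cultures, against 274.7, 296.4 and 256.4 in pRb-expressing cultures. Replicate 1 of the pRb-deficient cultures was well above the other 2 there, and the log2 fold change of −2.37 had a standard error of 0.43 (adjusted p = 0.00475 from limma). The second had 56.3, 39.4 and 6.8 in pRb-deficient cultures, against 259.6, 204.0 and 211.5 in pRb-expressing cultures (log2 −2.43). The third had 4.7, 15.9 and 25.2 in pRb-deficient cultures, against 81.0, 101.4 and 73.2 in pRb-expressing cultures (log2 −1.40). The order of the pRb-deficient arrays on the third probe set was thus the reverse of that on the others, at signals under the floor, and the third entered the test only through its signals in pRb-expressing cultures.

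Pcdhb21 had 127.7, 109.4 and 74.5 in pRb-deficient cultures, against 353.3, 452.4 and 245.4 in pRb-expressing cultures, a log2 fold change of −1.75 (SE 0.30, adjusted p = 0.00369 from limma). The pRb-expressing arrays spread widely but stayed above every pRb-deficient one. Its second probe set had 54.3, 25.4 and 14.9 in pRb-deficient cultures, against 177.3, 174.1 and 164.3 in pRb-expressing cultures, a log2 fold change of −2.17 with 2 pRb-deficient arrays set to the floor. Pcdhb19 had 94.9, 58.1 and 74.3 in pRb-deficient cultures, against 157.7, 224.5 and 183.4 in pRb-expressing cultures, and was 2.51-fold lower (adjusted p = 0.00588 from limma). Pcdhb5 had 90.1, 89.0 and 71.0 in pRb-deficient cultures, against 166.3, 155.9 and 158.8 in pRb-expressing cultures, and was 1.93-fold lower (adjusted p = 0.00657 from limma). In both genes the groups were separated.

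The other 4 beta genes that were lower had means under 100 in both groups. Pcdhb12 was at or below 32 on all pRb-deficient arrays and averaged 75.2 ± 9.31 in pRb-expressing cultures (SD, n = 3), at least 2.34-fold lower. Pcdhb11 averaged 41.8 ± 10.6 in pRb-deficient cultures and 84.2 ± 13.5 in pRb-expressing cultures (SD, n = 3 each; log2 −1.03, adjusted p = 0.0126 from limma), and without pRb-deficient replicate 2 its adjusted p was 0.0515. Pcdhb14 was lower on 1 of 2 probe sets (log2 −0.60, adjusted p = 0.0174 from limma). That probe set was under 32 on every pRb-deficient array. It entered the test only through its signals in pRb-expressing cultures, so a call could only be lower. Its adjusted p was 0.0605 without pRb-deficient replicate 2 and 0.0501 without pRb-deficient replicate 3. Pcdhb3 had the smallest change of the 11 (log2 −0.48, adjusted p = 0.0357 from limma), and its adjusted p was 0.0944 to 0.123 when pRb-expressing replicate 1 or 2 or pRb-deficient replicate 1 or 2 was left out.

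**Figure D1:**
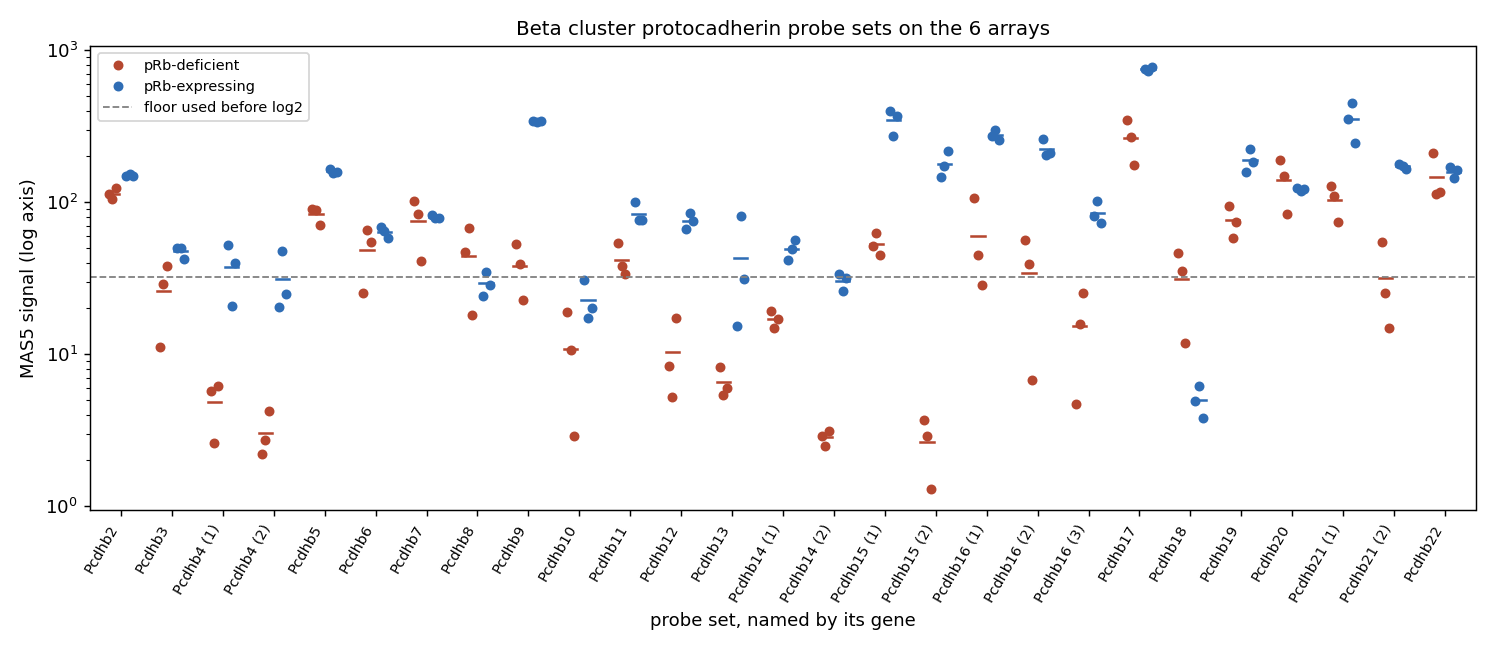
MAS5 signals (log axis) of the 27 beta cluster probe sets on the 3 pRb-deficient arrays (left of each pair) and the 3 pRb-expressing arrays (right); short lines mark group means, a dashed line marks the floor, 32, and numbers in brackets tell probe sets of 1 gene apart. The groups stand well apart in Pcdhb9, Pcdhb15, Pcdhb16, Pcdhb17 and Pcdhb21. They overlap in Pcdhb6, Pcdhb7, Pcdhb8, Pcdhb20, Pcdhb22 and Pcdhb10, which was not tested.

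Beta genes that did not pass included measurable ones as well as dim ones. Pcdhb20 had 190.1, 148.8 and 83.6 in pRb-deficient cultures, against 124.5, 118.8 and 121.5 in pRb-expressing cultures (log2 0.13, SE 0.31). Pcdhb22 had 211.7, 113.1 and 116.2 in pRb-deficient cultures, against 171.5, 143.5 and 162.4 in pRb-expressing cultures (log2 −0.17, SE 0.28). The pRb-expressing arrays were close together in both genes, whereas the pRb-deficient arrays lay on either side of them.

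Pcdhb2 had 113.0, 104.3 and 124.6 in pRb-deficient cultures, against 147.9, 152.3 and 149.4 in pRb-expressing cultures, without overlap but with an adjusted p of 0.114 from limma (log2 −0.40, SE 0.17). Pcdhb6 and Pcdhb7 averaged under 100 in both groups and overlapped, and both probe sets of Pcdhb4, the single one of Pcdhb13 and the second of Pcdhb14 were at or below 32 on every pRb-deficient array and on 1 or 2 pRb-expressing arrays. Pcdhb8 and Pcdhb18 had signals of at most 67.2, and Pcdhb18 was under 32 on every pRb-expressing array. Pcdhb8 had 47.2, 67.2 and 18.1 in pRb-deficient cultures, against 24.3, 34.9 and 28.4 in pRb-expressing cultures (log2 0.50, adjusted p = 0.193 from limma), and without pRb-deficient replicate 3 its adjusted p was 0.0274 (log2 0.77).

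The pRb-deficient cultures were not alike in the beta cluster. Replicate 3 had the lowest pRb-deficient signal in 10 (66.7%) of the 15 probe sets that were lower, and in 38.6% of all probe sets tested. Replicate 1 had the highest in 11 (73.3%) of the 15, and in 42.8% of all probe sets tested. Over the 26 beta cluster probe sets tested, replicate 3 was lowest in 53.8% and replicate 1 highest in 61.5%. These ranks include signals under the floor. Leaving out each array in turn gave 12 to 15 lower probe sets in the cluster. Members of the beta cluster have closely similar coding sequences, so that probe sets of different genes may measure the same transcripts in part, and how far they do was not tested.

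Along the chromosome, 2 of the 7 genes from Pcdhb2 to Pcdhb8 were lower and 9 of the 14 from Pcdhb9 to Pcdhb22 were lower, with Pcdhb10 in the second stretch not tested. Over all genes tested 23.4% were lower. The 2 stretches also differed in brightness, with a median mean signal of 56.1 in the first and 131.7 in the second. The part of brightness in these counts was not tested. The median log2 fold change of 241 genes of chromosome 18 was 0.28, the opposite sign to that of the beta cluster. With chromosome medians subtracted, 18 beta cluster probe sets were lower. The subtraction moved every log2 fold change of the cluster down by 0.28, so this count adds no support. Around the clusters, the 10 nearest tested genes on each side of the alpha-to-gamma interval held 7 higher genes, 2 lower genes and 11 that did not pass. Their median was 0.24, and Pcdh1 and Pcdh12 were among those that did not pass. The shares over all genes tested were 18.5% higher and 23.4% lower. Hars, which encodes the histidyl-tRNA synthetase, averaged 2990 ± 476 in pRb-deficient cultures and 1783 ± 89.1 in pRb-expressing cultures (SD, n = 3 each), and Diaph1, a formin that elongates actin filaments, averaged 1748 ± 128 in pRb-deficient cultures and 1030 ± 47.5 in pRb-expressing cultures. Cd14, an endotoxin coreceptor, averaged 984 ± 162 in pRb-deficient cultures and 267.8 ± 41.0 in pRb-expressing cultures (log2 1.88, adjusted p = 0.000216 from limma).

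Between the beta and gamma clusters lie Taf7, a subunit of the general transcription factor TFIID, and Slc25a2, a mitochondrial ornithine carrier. Taf7 had 102.2, 125.1 and 123.9 in pRb-deficient cultures, against 256.7, 251.0 and 273.2 in pRb-expressing cultures, a log2 fold change of −1.16 (SE 0.16, adjusted p = 0.00151 from limma). Its groups did not overlap, and it was the one that passed of these 2 genes. Slc25a2 averaged 50.8 ± 19.1 in pRb-deficient cultures and 44.4 ± 13.1 in pRb-expressing cultures (SD, n = 3 each) and did not pass.

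The alpha cluster was measured by 6 probe sets annotated to 9 or 14 alpha genes each, so that no single gene can be named; they are not among the 68. Of these, 5 were lower and 1 did not pass, where 18.8% of all probe sets tested were lower. A lower one with 4.7, 15.0 and 6.5 in pRb-deficient cultures entered the test only through its signals in pRb-expressing cultures. Probe sets with the same annotation may measure the same transcripts and are not separate evidence. The probe set with the largest change had 24.5, 41.6 and 29.4 in pRb-deficient cultures, against 528.4, 582.8 and 576.9 in pRb-expressing cultures, a log2 fold change of −4.01 with signals under 32 set to the floor (SE 0.18, adjusted p = 1.53e-05 from limma). The second had 31.0, 58.0 and 62.8 in pRb-deficient cultures, against 671.2, 547.3 and 632.8 in pRb-expressing cultures, a log2 fold change of −3.65 (SE 0.28). Both annotations cover 14 alpha genes, which share their last exons. The probe set that did not pass had 86.1, 100.5 and 71.4 in pRb-deficient cultures, against 75.0, 81.3 and 90.8 in pRb-expressing cultures, which lay within the pRb-deficient range. Whichever array was left out, 4 remained lower, and the probe set with the smallest of the 5 changes (log2 −0.41, adjusted p = 0.0460 from limma) was the one lost. Pcdhb1 (log2 −0.43) and Pcdhgc4, the only gamma gene with a probe set of its own (log2 0.54), did not pass. Any probe sets annotated to several gamma genes were not examined, so the gamma cluster as a whole was not assessed.

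**Figure D2:**
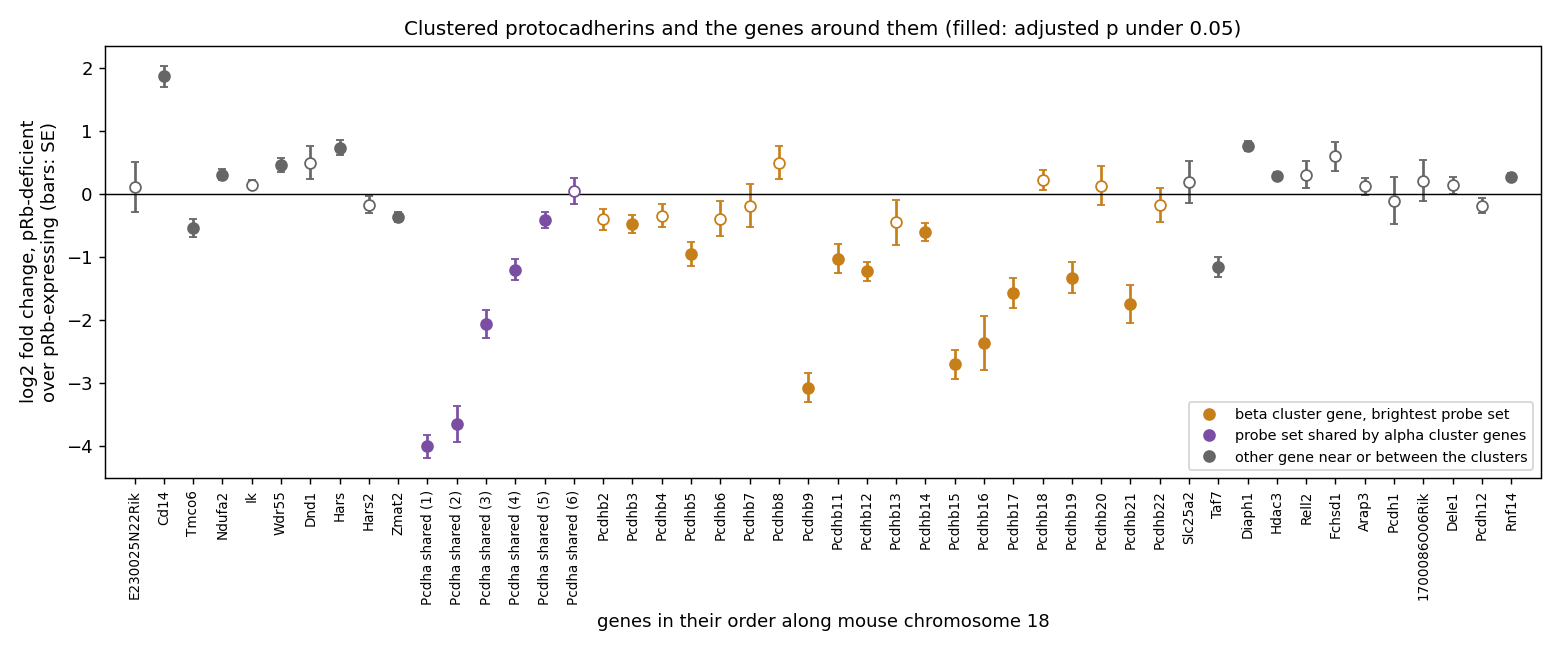
Log2 fold change, pRb-deficient over pRb-expressing, with standard errors, for 20 beta cluster genes (brightest probe set), the 6 shared alpha probe sets and 22 other genes, in their order along mouse chromosome 18; the shared alpha probe sets stand at the place of their cluster, ordered by size. Filled points passed the test. The clusters reach −4.01 in the alpha probe sets and −3.08 in Pcdhb9, the genes on both sides lie between −0.54 and 1.88, and Taf7 lies at −1.16.

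Among the 19 dispersed members, 2 genes were lower (Pcdh18 and Fat4), 2 were higher (Pcdh19 and Dchs1), 11 did not pass and 4 (Pcdh7, Pcdh15, Pcdh17 and Fat2) were not tested on their brightest probe set because it was under 32 on all arrays. These 2 of 15 tested genes in each direction compare with 23.4% of all genes lower and 18.5% higher, a share no higher than that of the array in either direction. By probe set, 4 of 41 were lower, 4 were higher, 17 did not pass and 16 were not tested, where 18.8% of all probe sets tested were lower and 16.2% higher, and the median log2 fold change of the 25 tested was −0.10. Over all 40 genes the count was 13 lower and 2 higher. The beta cluster and the dispersed members differed in these counts, but members are not replicates and the lists were not set against each other in a test.

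The delta-2 protocadherins Pcdh18 and Pcdh19 changed in opposite directions. Pcdh18 (chromosome 3) binds the adaptor Dab1 in mouse, and Pcdh19 (chromosome X) is the gene mutated in a human epilepsy that affects mainly females. Pcdh19 had 4526.2, 4778.9 and 4549.4 in pRb-deficient cultures, against 833.5, 700.7 and 832.4 in pRb-expressing cultures. Its log2 fold change was 2.55 (SE 0.09, adjusted p = 4.94e-06 from limma), a 5.87-fold rise. On its second probe set the signals were 4352.4, 3889.2 and 3744.4 in pRb-deficient cultures, against 579.9, 596.6 and 591.5 in pRb-expressing cultures (log2 2.76, SE 0.08). The third had 1691.3, 1545.4 and 1392.5 in pRb-deficient cultures, against 356.1, 361.4 and 312.0 in pRb-expressing cultures (log2 2.17, SE 0.11). All 3 probe sets separated the groups, with small spread inside each.

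Sex-linked transcripts differed between the same groups. Xist, a long RNA made from an X chromosome that is being silenced, had 12296.3, 10939.1 and 9658.4 in pRb-deficient cultures, against 176.3, 159.7 and 166.8 in pRb-expressing cultures. The Y-linked gene Kdm5d had 25.0, 12.9 and 17.6 in pRb-deficient cultures, against 563.4, 525.4 and 544.7 in pRb-expressing cultures. Sex of the source cells and pRb status therefore cannot be told apart for Pcdh19 or any other member. The median log2 fold change of 303 genes of chromosome X was 0.16, and Pcdh19 had a log2 fold change of 2.39 with chromosome medians subtracted.

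Pcdh18 had 484.6, 374.0 and 307.4 in pRb-deficient cultures, against 1787.3, 1637.2 and 1643.2 in pRb-expressing cultures. Its log2 fold change was −2.14 (SE 0.16, adjusted p = 0.000105 from limma), 4.42-fold lower. The second probe set had 147.6, 131.2 and 85.4 in pRb-deficient cultures, against 772.4, 685.3 and 598.8 in pRb-expressing cultures (log2 −2.53, SE 0.23), and the third had 61.6, 13.8 and 14.4 in pRb-deficient cultures, against 454.2, 458.3 and 412.8 in pRb-expressing cultures (log2 −3.47, SE 0.29). The groups were far apart on all 3, and 2 pRb-deficient arrays of the third were set to the floor.

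The upstream sequences of the 3 dispersed members that changed and have an entry in the RefSeq promoter table (build GRCm38.p6) are given because Pcdh18 and Pcdh19, of 1 subfamily, moved apart and Fat4 moved with Pcdh18. Each run is the 250 bases before the transcription start, 5′ to 3′ on the strand of the gene, with every CG dinucleotide, the site of DNA methylation, in capitals. They lie at chr3:49757317-49757566 (minus strand), chrX:133688994-133689243 (minus strand) and chr3:38886690-38886939 (plus strand).
Pcdh18: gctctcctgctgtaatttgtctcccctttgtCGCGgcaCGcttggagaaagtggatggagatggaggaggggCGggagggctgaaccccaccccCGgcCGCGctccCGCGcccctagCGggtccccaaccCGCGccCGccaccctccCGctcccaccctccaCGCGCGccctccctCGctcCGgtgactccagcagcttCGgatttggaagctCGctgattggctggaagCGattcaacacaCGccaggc
Pcdh19: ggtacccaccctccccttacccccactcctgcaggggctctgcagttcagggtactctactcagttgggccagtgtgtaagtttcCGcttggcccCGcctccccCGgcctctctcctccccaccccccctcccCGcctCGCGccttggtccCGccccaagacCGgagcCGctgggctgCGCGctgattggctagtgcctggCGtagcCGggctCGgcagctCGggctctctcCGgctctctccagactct
Fat4: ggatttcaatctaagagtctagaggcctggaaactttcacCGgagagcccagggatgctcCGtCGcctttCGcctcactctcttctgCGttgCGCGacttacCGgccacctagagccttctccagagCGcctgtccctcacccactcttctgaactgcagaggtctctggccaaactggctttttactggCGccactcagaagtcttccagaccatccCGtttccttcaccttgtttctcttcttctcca
The Pcdh18 sequence holds 23 CG dinucleotides, that of Pcdh19 16 and that of Fat4 11, and the median over 32851 promoter windows was 6. Such counts are not particular to members that changed. Of the 16 windows of 15 members, 12 were above that median, and Celsr2 (32) and Fat3 (27), which did not pass, held more than Pcdh18. The letters TTTCGCGC and TTTGGCGC, forms of the motif bound by E2F factors, were searched on both strands, overlaps allowed. They were in none of the 16 windows of 15 members and in 0.654% of all windows. At so low a share, no match in 16 windows is the likely outcome for any genes, so the absence tells nothing about E2F. No beta cluster member had a window.

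The remaining delta-2 genes gave little signal. Pcdh8 reached 50.9 in pRb-deficient and 32.5 in pRb-expressing cultures on its brighter probe set (log2 0.28, adjusted p = 0.294 from limma), Pcdh10 was measured above 32 on 2 of 6 probe sets, neither of which passed, and both probe sets of Pcdh17 were under 32 on every array. Of the delta-1 genes, Pcdh9 had 111.8, 166.4 and 135.7 in pRb-deficient cultures, against 180.0, 153.1 and 186.6 in pRb-expressing cultures (log2 −0.34, SE 0.21), with overlap. Pcdh1, on chromosome 18 beyond the gamma cluster, ranged from 8.8 to 71.6 in pRb-deficient cultures and from 29.1 to 53.3 in pRb-expressing cultures, and all 3 probe sets of Pcdh7 were under 32 on every array. No delta-1 probe set of the 3 tested by limma passed, and none had an unadjusted p under 0.05.

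Pcdh12, known from endothelium, Pcdh15, a component of the tip link of inner ear hair cells, and Pcdh20 did not pass on any probe set. Their highest signals were 49.2, 29.8 and 93.3 in pRb-deficient cultures and 40.6, 32.8 and 60.8 in pRb-expressing cultures. Endothelial markers (8 genes, 7 tested) had no call by limma and none with an unadjusted p under 0.05, and summed to between 581.3 and 621.9 in pRb-deficient cultures and between 600.6 and 677.2 in pRb-expressing cultures, with Tie1 under 32 on every array.

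Dchs1, the ligand of the Fat and Dachsous pair, was higher in pRb-deficient osteoblasts, and Fat4, its receptor, was lower. Dchs1 had 606.7, 630.0 and 476.7 in pRb-deficient cultures, against 132.7, 65.5 and 22.4 in pRb-expressing cultures. The pRb-expressing arrays spanned a wide range, 1 of them under the floor, yet all lay below the pRb-deficient ones. With that array set to the floor, the log2 fold change was 3.12 (SE 0.48, adjusted p = 0.00237 from limma). It was 2.60 without pRb-expressing replicate 3, the array under the floor, and 2.37 with a floor of 100. The median log2 fold change of 656 genes of chromosome 7, where Dchs1 lies, was −0.33.

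Fat4 had 338.0, 246.6 and 376.6 in pRb-deficient cultures, against 620.5, 485.6 and 555.2 in pRb-expressing cultures on its brighter probe set (log2 −0.80, SE 0.18, adjusted p = 0.0129 from limma). Without pRb-expressing replicate 1 the adjusted p was 0.0518. Its second probe set had 226.1, 213.5 and 256.3 in pRb-deficient cultures, against 440.8, 219.4 and 468.5 in pRb-expressing cultures (log2 −0.62, SE 0.29, adjusted p = 0.154 from limma). There pRb-expressing replicate 2 lay within the pRb-deficient range, so the 2 probe sets had the same sign but only 1 passed.

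Fat1, a giant cadherin that organizes actin at cell edges, did not pass. It had 8923.1, 8031.3 and 7561.9 in pRb-deficient cultures, against 9587.8, 8291.4 and 7868.9 in pRb-expressing cultures, and the ranges of the groups overlapped (log2 −0.07, SE 0.10, adjusted p = 0.648 from limma). Fat3 had 85.0, 88.4 and 67.6 in pRb-deficient cultures, against 65.6, 74.2 and 81.0 in pRb-expressing cultures (log2 0.12, SE 0.20). Fat2 was at or below 17.6 on every array.

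**Figure D3:**
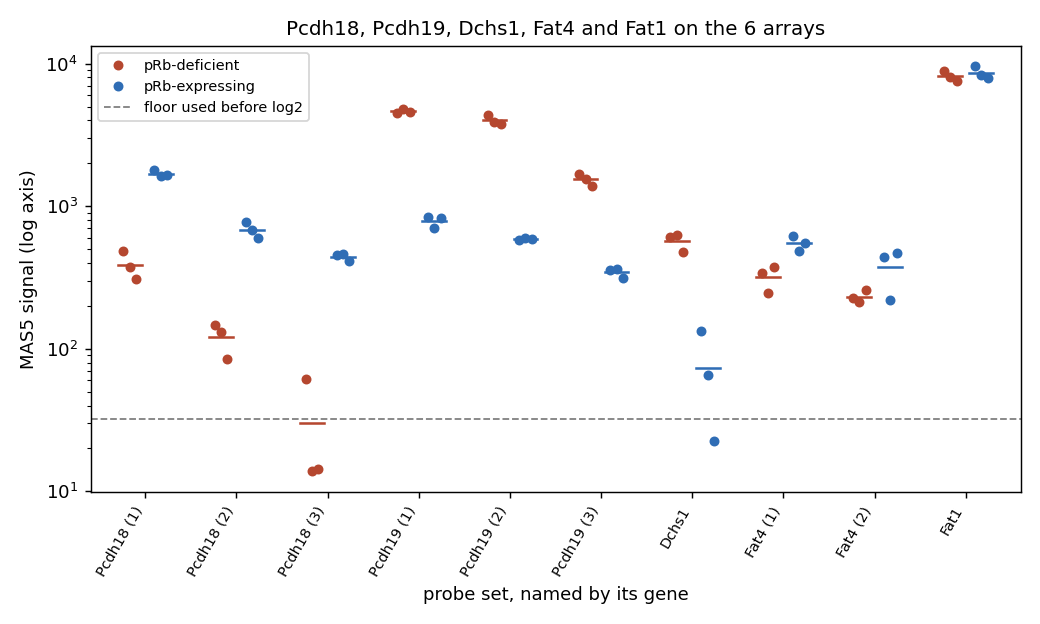
MAS5 signals (log axis) of Pcdh18, Pcdh19, Dchs1, Fat4 and Fat1, with the 3 pRb-deficient arrays left and the 3 pRb-expressing arrays right in each pair; short lines mark group means and a dashed line marks the floor, 32. Pcdh18 is lower and Pcdh19 higher in pRb-deficient cultures on all 3 of their probe sets, Dchs1 is higher, Fat4 overlaps on its second probe set, and Fat1 overlaps.

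The Celsr genes did not pass on any of 4 probe sets, by limma or at an unadjusted p under 0.05. Celsr2, expressed in epithelia and neurons, had 74.7, 126.5 and 152.7 in pRb-deficient cultures, against 149.6, 168.6 and 187.8 in pRb-expressing cultures (log2 −0.57, SE 0.29, adjusted p = 0.183 from limma). Its other probe set had 79.5, 113.5 and 87.8 in pRb-deficient cultures, against 65.2, 107.6 and 88.7 in pRb-expressing cultures (log2 0.12, SE 0.26). The pair of probe sets thus had opposite signs, neither past the threshold. Celsr1 reached 25.7 in pRb-deficient and 32.9 in pRb-expressing cultures, and Celsr3 reached 54.0 in pRb-deficient and 73.9 in pRb-expressing cultures.

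Other genes of planar polarity were mostly higher where they passed. Of 19 genes tested, 6 were higher, 1 was lower and 12 did not pass, with a median log2 fold change of 0.36; over all genes tested 18.5% were higher and 23.4% lower. Fzd6, a Frizzled receptor of the polarity system, had 2917.4, 2656.5 and 2699.8 in pRb-deficient cultures, against 159.6, 107.8 and 110.8 in pRb-expressing cultures (22.2-fold higher, log2 4.47, SE 0.16, adjusted p = 6.26e-06 from limma). Wnt5a, the secreted ligand that orients polarity in limb and skull, had 1565.6, 1178.4 and 1056.9 in pRb-deficient cultures, against 65.6, 47.1 and 94.8 in pRb-expressing cultures (18.8-fold higher, log2 4.23, SE 0.28). The groups were far apart in both genes.

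Dvl1, a cytoplasmic transducer of Frizzled signals, averaged 2788 ± 242 in pRb-deficient cultures and 950.0 ± 42.6 in pRb-expressing cultures (SD, n = 3 each; log2 1.55), and Scrib, a basolateral scaffold, averaged 850.2 ± 34.4 in pRb-deficient cultures and 347.8 ± 6.46 in pRb-expressing cultures (log2 1.29). Fzd3 and Prickle2 were the other 2 higher genes (log2 2.43 and 0.92). Ptk7, a transmembrane pseudokinase of the pathway, was the lower one (485 ± 23.9 in pRb-deficient cultures and 1099 ± 79.1 in pRb-expressing cultures, log2 −1.18). Among those that did not pass were Vangl1, Vangl2, Prickle1 and Fjx1, the counterpart of the fly kinase Four-jointed that modifies Fat and Dachsous.

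**Figure D4:**
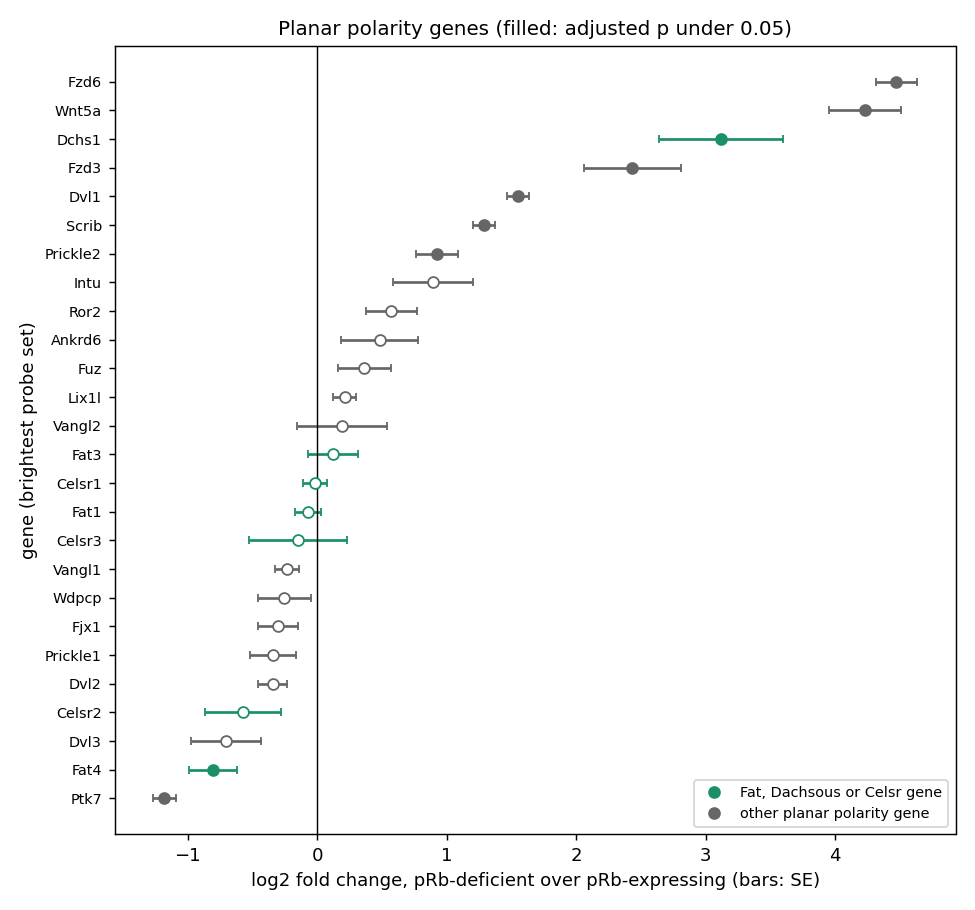
Log2 fold change, pRb-deficient over pRb-expressing, with standard errors, for 7 Fat, Dachsous and Celsr genes and 19 other planar polarity genes (brightest probe set each, sorted by value); filled points passed the test. Dchs1 at 3.12 stands next to Fzd6 at 4.47, Wnt5a at 4.23 and Fzd3 at 2.43, Fat4 at −0.80 stands next to Ptk7 at −1.18, and the other 5 genes of the 3 families have open points.

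Cytoplasmic partners of protocadherins, among them the WAVE complex that delta-2 tails bind, were called at shares near those of the array. Of 23 tested, 5 were higher, 7 lower and 11 did not pass (median log2 0.10), beside 18.5% of all genes higher and 23.4% lower. With chromosome medians subtracted, 3 partners were lower. Wasf1, the WAVE1 subunit, averaged 1729 ± 94.4 in pRb-deficient cultures and 896 ± 17.6 in pRb-expressing cultures (SD, n = 3 each; log2 0.95, adjusted p = 9.25e-05 from limma). Brk1 and Abi1, also subunits of the complex, and Vasp, an actin filament elongation factor, were lower, with log2 fold changes of −0.55, −0.63 and −0.64.

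Genes that regulate the clusters, such as the insulator protein Ctcf, the cohesin subunits and the DNA methyltransferases, were also measured. Of 21 tested, 7 were higher, 3 lower and 11 did not pass (median log2 0.12), beside 18.5% of all genes higher and 23.4% lower. The count higher was 4 without pRb-deficient replicate 2 and 3 with chromosome medians subtracted. Dnmt3b, the methyltransferase that methylates clustered protocadherin promoters in mouse development, had 104.9, 87.7 and 97.2 in pRb-deficient cultures, against 235.4, 192.6 and 225.8 in pRb-expressing cultures (log2 −1.17, SE 0.18, adjusted p = 0.00211 from limma). Its groups were well separated. Wapl, which releases cohesin from DNA, Rad21, a cohesin subunit, and Dnmt1, the maintenance methyltransferase, were higher by 0.73, 0.56 and 0.54 on the log2 scale. Ctcf averaged 1223 ± 89.9 in pRb-deficient cultures and 1454 ± 78.0 in pRb-expressing cultures (SD, n = 3 each; log2 −0.25, adjusted p = 0.0530 from limma) and did not pass.

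Among 5 other dispersed cadherin-related genes tested, Cdhr1, a photoreceptor cadherin, was lower, with 66.8, 32.2 and 46.2 in pRb-deficient cultures, against 316.4, 251.1 and 234.9 in pRb-expressing cultures (log2 −2.52, SE 0.30, adjusted p = 0.000760 from limma). Cdhr5, of the intestinal brush border, was lower as well (log2 −1.53), and the other 3 did not pass.

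Markers of cells that express protocadherins or could be present in calvarial cultures moved with the groups to different degrees. Of 7 neuronal markers tested, Map2 was higher and Tubb3 lower, and their summed signal lay between 685.1 and 761.7 in pRb-deficient cultures and between 809.6 and 904.5 in pRb-expressing cultures, with Snap25 under 32 on every array. Of 4 glial markers tested, S100b and Sox10 were lower; S100b, which chondrocytes also express, averaged 26.0 ± 9.89 in pRb-deficient cultures and 1613 ± 158 in pRb-expressing cultures (SD, n = 3 each). Olig2 was under 32 on every array, and the glial sum lay between 360.5 and 371.2 in pRb-deficient cultures and between 2002 and 2198 in pRb-expressing cultures. S100b weighed most in the pRb-expressing sum, and Gfap and Mbp did not pass (log2 −0.34 and 0.40). Smooth muscle markers had 2 higher of 3 tested (Cnn1 and Tagln), and Acta2 did not pass though its groups were separated, pRb-deficient below (log2 −0.24). Of 4 mesothelial markers Msln was higher, and Upk3b, Lrrn4 and Wt1 had negative changes that did not pass (median of the 4, log2 −0.26). Chondrocyte markers had 1 higher and 2 lower of 4, and epithelial markers 2 lower of 6. Of 4 hematopoietic markers tested Cd68 was higher, and Adgre1, Itgam and Ptprc had negative changes that did not pass. Over all genes tested 18.5% were higher and 23.4% lower. The part of these cell types in the protocadherin values was not tested.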

How the data were processed

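Gene expression was measured on 6 Affymetrix Mouse Genome arrays, 3 per group, from biotin-labelled RNA. The authors deposited linear intensities (MAS5 signals), with no detection calls in the table used here. Software named in the methods is Affymetrix Microarray 5.0, with scaling to a trimmed mean of 500; MAS5 and Affymetrix Expression Console 1.1 come from the submitters' processing notes. The trimmed mean of each array was checked at 499.9. On each array 24.4% to 26.6% of probe sets were at or below 32. The number of arrays limits the precision.

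After 64 control probe sets were left out, 45037 remained, and 38427 that exceeded 32 on at least 1 array were tested. After a floor of 32 and log2 transformation, limma 3.58.1 was run in R 4.3.3 (lmFit, then eBayes allowing an intensity trend), leaving 4 residual degrees of freedom. Two-sided p-values were given a Benjamini-Hochberg adjustment over all probe sets tested, and the threshold was 0.05. The Wilcoxon test that the methods name cannot give an exact p below 0.10 with 3 against 3 arrays. A fold is on geometric means and is a bound ("at least") where any array of the dimmer group was at or below 32, since such arrays were set to 32. Levels of different probe sets were not compared, apart from the choice of the brightest probe set of a gene and the sums of marker signals. In such sums the brightest genes weigh most.

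The annotation gave 1 symbol for 34945 probe sets, several for 932, which were not used for members, and none for 9160. RefSeq of GRCm38.p6 was used for chromosomes, gene order and promoters. Chromosome medians used genes whose signals averaged 200 or more. Members and lists were chosen with earlier results of these data known. Rb1 is given first, every member is accounted for, array values are given for members past the threshold with a mean of at least 100 in the higher group, and up to 4 genes with the lowest adjusted p are named from each other list; further genes named were chosen after their values were seen. The steps were tested on simulated data. Same-numbered replicates correlated at 0.02, −0.03 and 0.06 after removal of group means and were not taken as pairs.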

Additional observations from a re-analysis of the deposited data

How the results depend on the processing

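With the replicate number as a block (the replicate block), 14 beta cluster probe sets were lower in place of 15 and 12 member genes in place of 13; Pcdhb3 did not pass (adjusted p = 0.0990), no other call of a single member was lost. With a mean signal of at least 100, 9 beta cluster probe sets were lower, since fewer were tested. With array quality weights 1 beta cluster probe set, Pcdhb8, was higher (log2 0.95) and 4 member genes in place of 2 were higher, Pcdhb8 and Pcdh8 being the added ones. Leaving out 1 array at a time gave 12 to 15 lower and 0 to 1 higher beta cluster probe sets, the 1 being Pcdhb8 without pRb-deficient replicate 3, 3 to 5 lower dispersed probe sets with 4 higher, and 10 to 13 lower and 2 to 3 higher member genes. For 15 members past the threshold, 247 refits gave no change of direction, and 13 lost the call, 9 of them of Pcdhb3. The refits leave out Pcdhb3, Pcdhb11, Pcdhb12 and Pcdhb14 with a floor of 100 and with a mean signal of at least 100. These genes were too dim to be tested there.

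Counts in the other lists moved more. Subtraction of chromosome medians gave 3 lower planar polarity genes (main 1), 3 lower partners (main 7) and 3 higher cluster regulators (main 7). Array weights gave 4 lower and 10 higher planar polarity genes (main 1 and 6) and 7 lower regulators (main 3). A minimum change of 2-fold left 1 lower and 1 higher partner, and 1 lower and 0 higher regulators. A mean signal of at least 100, or leaving out pRb-expressing replicate 1 or pRb-deficient replicate 3, gave 2 lower polarity genes. Without pRb-deficient replicate 2, 4 regulators were higher. A floor of 100 or a mean of at least 100 left 2 lower shared alpha probe sets (main 5). The causes were not tested. With a floor of 100 the log2 fold change of Dchs1 was 2.37 and that of Pcdhb9 −1.77.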
